A study of Mus musculus with 12 samples.

Results

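The chemokine receptor gene Cxcr4 and the gene of its ligand, Cxcl12, were followed across mouse hypothalamic neurospheres treated with a synthetic glucocorticoid or with vehicle. These 2 genes were each found as 1 locus among the 40597 loci of the deposited expression table. They were chosen by their FPKM values under dexamethasone against vehicle, so their treatment differences are described here and not tested. Cxcr4 was lower in all 6 dexamethasone libraries than in any of the 6 vehicle libraries, in both sexes, with group means of 2.90 and 2.97 FPKM against 6.79 and 7.34 FPKM. Cxcl12 was close to the lower limit of the table throughout, with a mean of 0.0721 FPKM over the 12 libraries.

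CXCL12 is a secreted chemokine, and CXCR4 is the G protein-coupled receptor through which it directs cells along a gradient. In the developing brain the pair guides interneurons, granule cells and other progenitors, and it helps the neurons that make gonadotropin-releasing hormone to migrate into the forebrain. A second receptor, ACKR3, binds the same ligand without classical G protein signalling and removes it from the extracellular space, so that the level of ligand seen by CXCR4 depends on both receptors.

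The cultures were free-floating clusters of neural stem and progenitor cells, grown from the hypothalamus of male or female C57Bl/6 fetuses at embryonic day 14.5 and used at passage 3. They received 100 nM dexamethasone, which activates the glucocorticoid receptor, or ethanol as vehicle, for 4 hours. The 4 groups were female dexamethasone, female vehicle, male dexamethasone and male vehicle, with 3 biological replicates in each, and total RNA was sequenced. All groups were of the same strain, age and passage. The labels do not say what made cultures separate replicates, and p-values therefore measure only the spread between these libraries.

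Expression was given as FPKM, a fragment count divided by transcript length and by library size, which can be compared between genes. The known glucocorticoid targets Fkbp5, Tsc22d3, Klf9, Per1 and Zbtb16 all rose, with log2 differences of 1.91 to 3.05 (5 of 5 called higher at an adjusted p under 0.05 in limma, against 1.15% of the 14931 loci tested). The sums over protein-coding loci lay between 397412 and 453923 FPKM, and the number of loci above 1 FPKM between 13755 and 14826. Male vehicle library 3 and male dexamethasone library 2 stood apart, with 75.0% and 53.1% of their FPKM at loci without a gene name, against 11.6% to 38.6% in the other 10 libraries. The X-inactivation RNA Xist was at 136 to 328 FPKM in the female libraries. In the male libraries numbered 2 it reached 14.1 FPKM under dexamethasone and 3.04 FPKM under vehicle, against at most 0.0466 FPKM in the other male libraries. The values of Cxcr4 and Cxcl12 and the calls of Ptk2b and Elmo1 are given with and without these libraries. The glucocorticoid targets above and the cell type markers are given over all 12 libraries only.

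Cxcr4 lies on the minus strand of mouse chromosome 1 (GRCm38, chr1:128588199-128592293) and Cxcl12 on the plus strand of chromosome 6 (chr6:117168535-117181367). No other locus of the table overlapped either gene. The 250 bases before each RefSeq start (GRCm38.p6) are printed because the glucocorticoid receptor and the known activators of Cxcr4 act through sites in DNA. The Cxcr4 stretch covers chr1:128592300-128592549 and is written on the minus strand, and the Cxcl12 stretch covers chr6:117168285-117168534 on the plus strand. Capitals mark matches to the glucocorticoid receptor hexamer AGAACA, the NRF1 core, GCGCA followed directly by TGCGC, and the TATA box TATAAA.
Cxcr4: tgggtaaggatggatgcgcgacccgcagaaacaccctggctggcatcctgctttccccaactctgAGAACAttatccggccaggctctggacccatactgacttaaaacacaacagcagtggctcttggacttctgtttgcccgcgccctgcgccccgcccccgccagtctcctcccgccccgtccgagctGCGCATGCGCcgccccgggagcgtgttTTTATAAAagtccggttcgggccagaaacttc
Cxcl12: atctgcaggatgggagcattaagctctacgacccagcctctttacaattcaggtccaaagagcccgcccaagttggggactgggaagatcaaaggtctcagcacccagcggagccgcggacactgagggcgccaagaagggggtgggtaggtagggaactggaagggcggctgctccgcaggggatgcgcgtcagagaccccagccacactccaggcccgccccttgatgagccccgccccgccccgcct

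Both stretches were rich in G and C, at 61.2% for Cxcr4 and 64.4% for Cxcl12. The Cxcr4 stretch held 1 match to the core of NRF1, nuclear respiratory factor 1, a known activator of this promoter, at 59 to 50 bases before the start. That core was present in 257 of 32851 RefSeq promoter windows of the same length, or 0.782%. The hexamer AGAACA matched once, at 185 to 180 bases before the start, in letters that 16.1% of all windows hold. TATAAA matched on both strands in overlapping places, at 32 to 27 and at 30 to 25 bases before the start, and 12.4% of windows held it. The palindromic glucocorticoid element, AGAACA and TGTTCT set 3 bases apart, and the hypoxia core ACGTG had no match in either stretch, and 0.00913% and 16.6% of all windows held them. The GC box GGGCGG, a site of SP1-type factors, matched 3 times for Cxcr4 and 5 times for Cxcl12, and 32.7% of windows held it. In Cxcr4 1 GC box overlapped the NRF1 core by its outermost base, and in Cxcl12 a pair of GC boxes overlapped each other. All motifs were searched on both strands, and a match or its absence describes these letters only.

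Cxcr4 encodes the signalling receptor. In female dexamethasone cultures it was at 2.63, 2.76 and 3.29 FPKM, against 6.40, 9.03 and 4.95 FPKM in female vehicle cultures. In male dexamethasone cultures it was at 3.06, 3.18 and 2.66 FPKM, against 5.32, 7.30 and 9.38 FPKM in male vehicle cultures. Every dexamethasone library was low and every vehicle library high, with a gap between 3.29 and 4.95 FPKM that no library filled. Group means were 2.90 ± 0.350 FPKM under dexamethasone and 6.79 ± 2.07 FPKM under vehicle in females, and 2.97 ± 0.274 FPKM and 7.34 ± 2.03 FPKM in males (SD, n = 3 each). The dexamethasone mean was thus 0.426 of the vehicle mean in females and 0.404 in males.

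**Figure D1:**
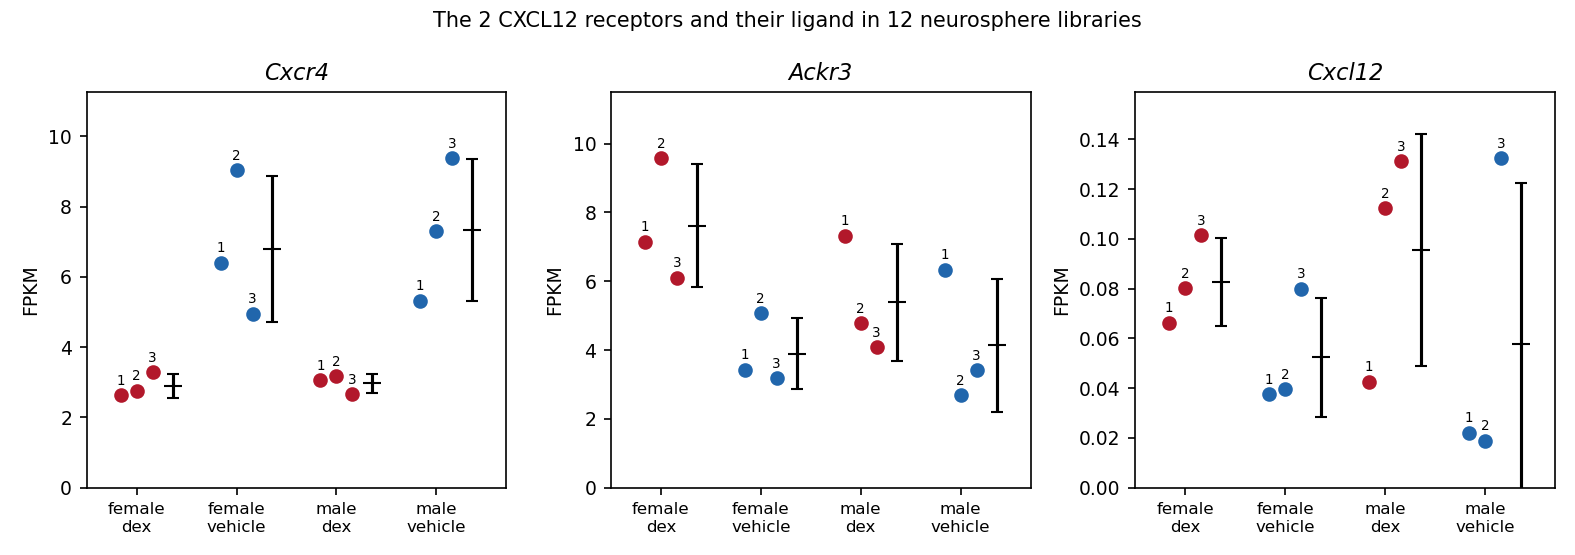
Expression in FPKM (linear axes from 0) of Cxcr4, of the scavenging receptor Ackr3 and of Cxcl12 in each library, with dexamethasone (dex) in red left of vehicle in blue for each sex; numbers are the replicate numbers, and bars show the mean ± SD of 3 libraries, cut at 0 where the SD passes it. All dexamethasone points of Cxcr4 lie between 2.63 and 3.29 FPKM, below all vehicle points at 4.95 to 9.38 FPKM, whereas the groups overlap for Ackr3 and for Cxcl12.

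The spread of Cxcr4 was itself uneven between the treatments. The highest dexamethasone library held 1.25 times the FPKM of the lowest, and the highest vehicle library 1.90 times that of the lowest. On the log2(FPKM + 1) scale the difference of dexamethasone minus vehicle was -0.97 in females and -1.04 in males, and -1.01 averaged over the sexes (SE 0.15). This was the 264th most negative of the 14931 averaged differences. A separation in which all dexamethasone libraries lay below all vehicle libraries was found at 120 of the 14931 loci, or 0.804%, and since the treatment contrast chose the gene nothing is read from that share. Leaving out any 1 library left the averaged difference between -1.10 and -0.91. Without male vehicle library 3 and male dexamethasone library 2 the male difference was -0.91, and without both male libraries numbered 2 it was -1.07. In RNA from whole cultures, fewer cells of a type and less RNA per cell cannot be told apart.

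The sexes were compared by tests that did not enter the choice of the genes. The female treatment difference of Cxcr4 minus the male one was 0.07 (SE 0.30, 95% confidence interval -0.60 to 0.75, limma adjusted p = 1.00), an interval wide enough to hold sizeable differences in either direction. Female minus male, averaged over treatments, was -0.06 (SE 0.15, 95% confidence interval -0.40 to 0.27, limma adjusted p = 0.919). The order of the group means was female dexamethasone, male dexamethasone, female vehicle and male vehicle, and within each treatment the sexes differed by less than the spread between replicates. Across all loci 5 were called for the interaction (0.0335%) and 16 for the sex difference (0.107%).

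Cxcl12, the ligand, was barely detected in the cultures. In female dexamethasone cultures it was at 0.0664, 0.0801 and 0.101 FPKM, against 0.0376, 0.0395 and 0.0800 FPKM in female vehicle cultures. The male dexamethasone libraries held 0.0426, 0.112 and 0.131 FPKM, and the male vehicle libraries 0.0222, 0.0189 and 0.132 FPKM. The highest value of all was in a vehicle library, male vehicle library 3, and the treatments overlapped in both sexes. In males the overlap rested on that library alone, which also stood apart in its FPKM at unnamed loci. Group means were 0.0826 ± 0.0177 FPKM under dexamethasone and 0.0524 ± 0.0239 FPKM under vehicle in females, and 0.0954 ± 0.0467 FPKM and 0.0578 ± 0.0647 FPKM in males (SD, n = 3 each). Without male vehicle library 3 the male vehicle libraries held 0.0189 and 0.0222 FPKM, below all male dexamethasone libraries, and the male dexamethasone mean was 4.65 times the vehicle mean in place of 1.65 times. Without male dexamethasone library 2 as well it was 4.24 times, and without both male libraries numbered 2 it was 1.12 times.

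Cxcl12 fell under the minimum mean of 1 FPKM set for testing, so neither its interaction nor its sex difference was tested. Its mean exceeded that of 36.1% of the 21337 protein-coding loci, whereas the mean of Cxcr4 exceeded that of 62.0%. After scaling by the relative value of 1 fragment in each library, the 12 values of Cxcl12 ran from 1 to 8.10 times the lowest, found in male vehicle library 1. Male vehicle libraries 1 and 2 shared that lowest step and female vehicle libraries 1 and 2 stood at 2.00 times it. The FPKM of Cxcr4 was 20.3 to 71.9 times that of Cxcl12 in dexamethasone libraries and 61.9 to 387 times in vehicle libraries, and these ranges overlapped.

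Ackr3, the scavenging receptor on chromosome 1 (chr1:90203980-90216751), stood at the level of Cxcr4. In female dexamethasone cultures it was at 7.15, 9.58 and 6.11 FPKM, against 3.44, 5.07 and 3.19 FPKM in female vehicle cultures. Male cultures were at 7.32, 4.78 and 4.08 FPKM under dexamethasone, against 6.34, 2.69 and 3.42 FPKM under vehicle. The female treatments did not overlap, and the male treatments did. No share over all loci is given for a separation within 1 sex, so nothing is read from it. The averaged log2 difference of 0.58 (SE 0.20) did not pass the test (limma adjusted p = 0.256), and the sexes' differences were not called apart (0.47, SE 0.40, 95% confidence interval -0.43 to 1.37, limma adjusted p = 1.00). With the replicate number as a block the limma adjusted p of the averaged difference was 0.0196, a call that depends on taking the numbers as pairs. Over the other alternatives it ran from 0.108 to 0.561.

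The balance of the receptors differed between the treatments as a description. Ackr3 was above Cxcr4 in 6 of 6 dexamethasone libraries and in 1 of 6 vehicle libraries, male vehicle library 1. The ratio of Ackr3 to Cxcr4 was 2.72, 3.47 and 1.85 in female dexamethasone cultures and 0.537, 0.562 and 0.645 in female vehicle cultures. In male dexamethasone cultures it was 2.39, 1.503 and 1.53, against 1.19, 0.368 and 0.364 in male vehicle cultures. All dexamethasone ratios lay above all vehicle ratios, and since Cxcr4 was chosen for the treatment contrast this carries no test.

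The other partners were genes of proteins that bind or trim the pair, 8 with Ackr3, of which 5 passed the filter. None was called in the averaged effect, against 1.53% of all loci tested (limma, 3 at an unadjusted p under 0.05). Their median log2 difference was 0.04, against -0.01 over all loci. Sdc4, a heparan sulfate proteoglycan of the cell surface of a family that can bind CXCL12, was at 163, 127 and 144 FPKM in female dexamethasone cultures, against 83.5, 55.8 and 73.7 FPKM in female vehicle cultures. Its male values were 173, 136 and 85.2 FPKM under dexamethasone, against 87.0, 77.4 and 49.1 FPKM under vehicle. Only male dexamethasone library 3 fell within the vehicle range. The averaged log2 difference of Sdc4 was 0.94 (SE 0.20, limma adjusted p = 0.0523). Over the alternatives the limma adjusted p ran from 0.00163, with the replicate number as a block, to 0.216. It was 0.0491 with a pseudocount of 0.1 and 0.0474 with a mean of at least 5 FPKM. With median-ratio scaling it was 0.0499, with robust eBayes 0.0491 and without male dexamethasone library 3 it was 0.0190. The remaining alternatives gave no call.

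Cd44, a hyaluronan receptor that can act with CXCR4, was at 12.1 to 22.8 FPKM in dexamethasone libraries and 15.9 to 29.3 FPKM in vehicle libraries, with an averaged log2 difference of -0.41 (SE 0.18, limma adjusted p = 0.366). With the replicate number as a block the limma adjusted p was 0.00586, a call that depends on taking the numbers as pairs. Mif, a cytokine that also binds CXCR4, averaged 178 FPKM, with a log2 difference of 0.04 (limma adjusted p = 0.889). The mouse genome holds many Mif pseudogenes, so its level is uncertain. Mmp14, a membrane-bound protease of a family that can cleave CXCL12, averaged 3.49 FPKM, with a log2 difference of -0.02 (limma adjusted p = 0.985). The signs of Mif and Mmp14 changed under quantile normalization, to -0.047 and 0.037. Cd74, a receptor of MIF listed as a joined locus, Dpp4, which trims CXCL12, and the protease Mmp2 averaged 0.0369, 0.0971 and 0.186 FPKM and were not tested.

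Beyond Cxcr4 and Ackr3, no chemokine receptor that was listed reached a mean of 1 FPKM. All 21 stayed under the filter, and Cxcr1, Ccr1, Ccr3, Ccr6, Ccr7 and Ccr8 were listed at 0 in all 12 libraries. The neutrophil receptor Cxcr2 averaged 0.855 FPKM, the scavenging receptor Ackr4 0.540 FPKM and Cxcr6 0.197 FPKM. Summed over the 21 genes, the level was 2.02 to 4.05 FPKM in dexamethasone libraries and 2.19 to 3.38 FPKM in vehicle libraries, and the ranges overlapped.

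Among 35 other chemokine ligands 3 passed the filter, while 9 were listed at 0 throughout. None of the 3 was called, against 1.53% of all loci tested (limma, 2 at an unadjusted p under 0.05), and so few loci say little about the ligands. Cx3cl1, fractalkine, a membrane-bound chemokine of neurons, was at 14.5, 23.1 and 23.3 FPKM in female dexamethasone cultures, against 27.1, 37.3 and 34.5 FPKM in female vehicle cultures. In male dexamethasone cultures it was at 16.7, 28.9 and 17.3 FPKM, against 34.4, 50.2 and 22.8 FPKM in male vehicle cultures. The female treatments were apart and the male treatments overlapped, but no share over all loci is given for a separation within 1 sex. Female and male differences were not called apart (0.03, SE 0.43). The averaged log2 difference was -0.70 (SE 0.22, limma adjusted p = 0.195). With the replicate number as a block the limma adjusted p was 0.018, a call that depends on taking the numbers as pairs.

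Ccl2, a monocyte attractant, was at 2.12, 15.1 and 9.61 FPKM in female dexamethasone cultures, against 1.84, 2.46 and 2.38 FPKM in female vehicle cultures. The male dexamethasone libraries held 2.81, 14.98 and 20.9 FPKM, against 1.68, 4.70 and 5.53 FPKM in the male vehicle libraries. The libraries numbered 1 were low in both dexamethasone groups and fell within the vehicle range, and the averaged log2 difference was 1.29 (SE 0.51, limma adjusted p = 0.310). Ccl25 averaged 6.36 FPKM, with a log2 difference of -0.01 (limma adjusted p = 0.980), and Ccl17 averaged 0.981 FPKM, just under the filter.

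**Figure D2:**
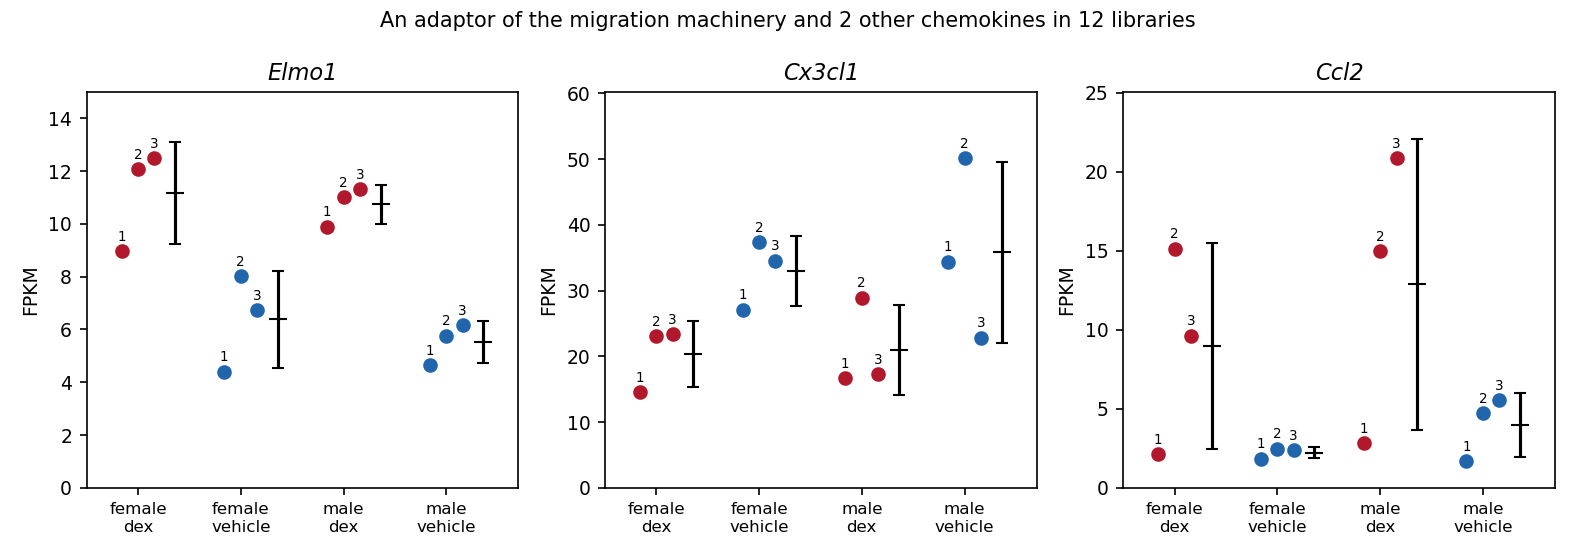
Expression in FPKM (linear axes from 0) of Elmo1, Cx3cl1 and Ccl2 in each library, with dexamethasone (dex) in red left of vehicle in blue for each sex; numbers are the replicate numbers, and bars show the mean ± SD of 3 libraries. Elmo1 separates the treatments, at 8.97 to 12.5 FPKM under dexamethasone and 4.39 to 8.02 FPKM under vehicle, and the other 2 genes overlap.

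Downstream of the receptor, 36 genes of G protein coupling and cell migration were examined. At 35 tested loci 2 rose, none fell and 33 were not called in the averaged effect (limma, 7 at an unadjusted p under 0.05). The called share was 5.71%, against 1.53% of all loci tested, with 1.15% higher and 0.388% lower, and the median log2 difference was -0.04. Ptk2b encodes PYK2, a calcium-responsive tyrosine kinase that chemokine receptors activate. It was at 12.3, 9.51 and 11.7 FPKM in female dexamethasone cultures, against 0.696, 0.925 and 0.836 FPKM in female vehicle cultures. Male cultures held 14.2, 10.1 and 5.58 FPKM under dexamethasone, against 0.854, 1.84 and 0.307 FPKM under vehicle. Every dexamethasone library was far above every vehicle library, a separation in this direction seen at 1.41% of the loci tested. The vehicle values of Ptk2b were under 1 FPKM except in male vehicle library 2. Ptk2b thus passed the filter only through its dexamethasone libraries, and nothing is read from the called share that it enters.

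Ptk2b rose by 2.59 on the log2(FPKM + 1) scale averaged over the sexes (SE 0.23, limma adjusted p = 0.000377). It was called in females (2.74, limma adjusted p = 0.00573, against 0.482% of all loci) and in males (2.45, limma adjusted p = 0.0127, against 0.315%). The male call was lost without male dexamethasone library 2 (limma adjusted p = 0.0618) and without male vehicle library 1 (0.0602). It was also lost without both male libraries numbered 2 (0.0667) and without male vehicle library 3 and male dexamethasone library 2 together (0.150), and over all its alternatives the adjusted p ran from 0.00524 to 0.150. The female and male differences were not called apart (0.29, SE 0.46, 95% confidence interval -0.73 to 1.31, limma adjusted p = 1.00).

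Elmo1, an engulfment and motility adaptor that links chemokine receptors to the activation of the GTPase RAC, was at 8.97, 12.1 and 12.5 FPKM in female dexamethasone cultures, against 4.39, 8.02 and 6.73 FPKM in female vehicle cultures. In male dexamethasone cultures it was at 9.90, 11.01 and 11.3 FPKM, against 4.64, 5.77 and 6.15 FPKM in male vehicle cultures. All dexamethasone libraries lay above all vehicle libraries, a separation seen at 1.41% of the loci tested. Elmo1 rose by 0.80 on the log2 scale averaged over the sexes (SE 0.14, limma adjusted p = 0.0173), and was not called in females alone (limma adjusted p = 0.224) or males alone (0.158). The call was lost without female dexamethasone library 2 (limma adjusted p = 0.0555), without both male libraries numbered 2 (0.116) and without male vehicle library 3 and male dexamethasone library 2 together (0.0907), in a range of 0.00392 to 0.116 over all alternatives.

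The highest of these genes were common parts of the machinery. The G protein subunits Gnb2, a joined locus, and Gnb1 averaged 399 and 320 FPKM, and the migration GTPases Cdc42 and Rac1 averaged 320 and 207 FPKM. Their averaged log2 differences were -0.01, -0.21, 0.13 and -0.07 in that order, and none was called. Summed over the list, the level was 2357 to 2707 FPKM in dexamethasone libraries and 2474 to 2713 FPKM in vehicle libraries.

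Genes that switch off and traffic CXCR4 were tested at 21 of 23 listed loci. None was called, against 1.53% of all loci tested (limma, 1 at an unadjusted p under 0.05), and the median log2 difference was -0.05. The recycling GTPase Rab11a averaged 231 FPKM, the late endosomal GTPase Rab7 102 FPKM, the receptor kinase Grk2 58.0 FPKM and the endosomal sorting adaptor Stam 55.6 FPKM, with averaged log2 differences of -0.02, -0.15, -0.05 and -0.04. Rgs2, a gene that dampens G protein signalling and that was picked out after its values were seen, had the most positive difference of this list, 0.58 (SE 0.16, limma adjusted p = 0.157).

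Genes known to control transcription of Cxcr4 were tested at 10 loci of 9 genes, 11 genes being listed. None was called, against 1.53% of all loci tested (limma, 2 at an unadjusted p under 0.05), and the median log2 difference was -0.07. The hypoxia factor Hif1a averaged 62.6 FPKM, the ETS-family factor Gabpa 48.2 FPKM, Yy1, which can repress Cxcr4, 37.0 FPKM and Vhl, which marks hypoxia factors for destruction, 29.1 FPKM. Their averaged log2 differences were -0.04, -0.07, -0.03 and 0.04. Nrf1, the gene of the factor whose core stands in the Cxcr4 promoter printed above, was picked out for that reason. Its higher locus was at 22.3 to 27.9 FPKM in dexamethasone libraries and 23.9 to 31.2 FPKM in vehicle libraries, with a log2 difference of -0.22 (SE 0.08, limma adjusted p = 0.254). A second tested locus of Nrf1 averaged 1.15 FPKM, with a log2 difference of -0.14 (SE 0.16, limma adjusted p = 0.733).

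**Figure D3:**
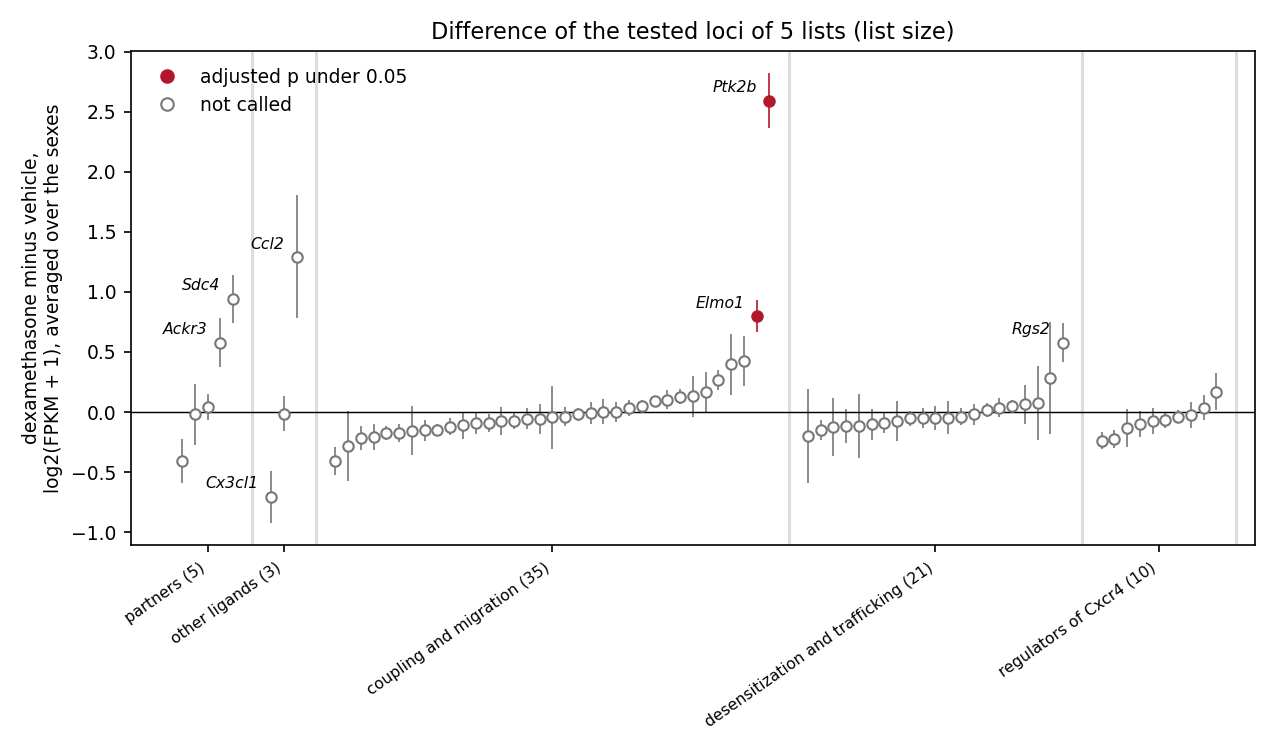
Differences of dexamethasone minus vehicle, averaged over the sexes on the log2(FPKM + 1) scale (vertical axis), for the 74 tested loci of 5 lists of genes around Cxcr4 (horizontal axis, ordered within each list; list size in parentheses). Points are estimates, bars are ± 1 standard error, and filled points were called at an adjusted p under 0.05 by limma: Ptk2b at 2.59 and Elmo1 at 0.80, with the other 72 loci not called.

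Over all 6 lists, without the chosen pair, 134 genes were listed and 74 loci tested. In the averaged effect 2 rose and none fell, or 2.70% called, against 1.53% of all loci, with 15 at an unadjusted p under 0.05. Differences were positive at 27 loci and negative at 47, with a median of -0.05 against -0.01 over all loci. In females 1 locus was called, against 0.482% of all loci, and in males 1, against 0.315%, Ptk2b in each case. Since Ptk2b passed the filter only through its dexamethasone libraries, nothing is read from the called shares that it enters. None was called for the interaction, against 0.0335% called over all loci, or for the sex difference, against 0.107% called. At an unadjusted p under 0.05 (limma) there were 1 locus for the interaction and 5 for the sex difference. No share over all loci is given for counts at an unadjusted p, so nothing is read from them.

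The loci with the profile most like that of Cxcr4 over the 12 libraries were Rprm, Mtss1, Sox9, Dusp14, Uaca and Zbtb12. Likeness was the root mean square difference between mean-centred log2(FPKM + 1) profiles, which ran from 0.279 for Rprm to 0.299 for Zbtb12. A gene with no variation at all would stand at 0.552, and the median over 14930 loci was 0.601. Rprm, a mediator of cell-cycle arrest, was at 12.2 to 17.2 FPKM in dexamethasone libraries and 20.7 to 29.0 FPKM in vehicle libraries. Mtss1, an actin-binding protein that bends membranes, was at 6.42 to 8.94 FPKM under dexamethasone and 10.1 to 12.6 FPKM under vehicle. Sox9, a transcription factor of neural stem cells and glia, was at 7.25 to 12.1 FPKM under dexamethasone and 11.4 to 26.6 FPKM under vehicle, and these ranges overlapped. The treatments were apart for Uaca, at 9.49 to 14.7 FPKM under dexamethasone and 17.2 to 21.5 FPKM under vehicle, and overlapped slightly for Dusp14, a phosphatase, and for Zbtb12. These loci were picked for likeness to Cxcr4, itself chosen by the treatment contrast. Low dexamethasone and high vehicle values were therefore largely fixed in advance, and nothing is read from these separations.

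**Figure D4:**
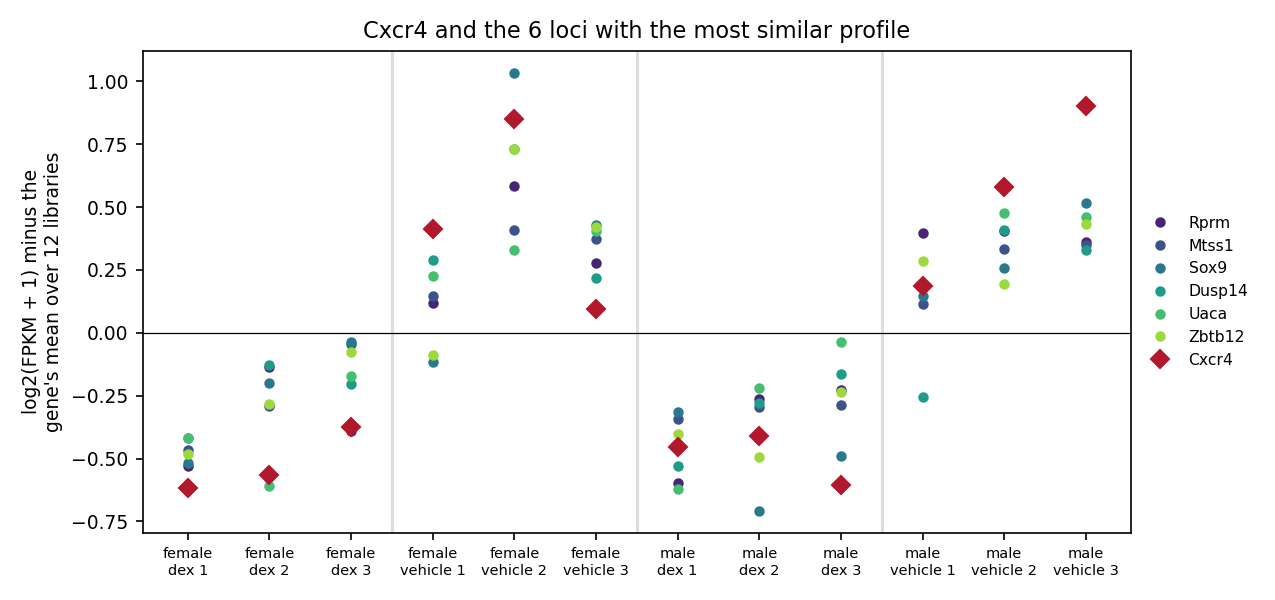
Mean-centred log2(FPKM + 1) (vertical axis) of Cxcr4 and of the 6 loci with the most similar profiles in each of the 12 libraries (horizontal axis), with dexamethasone left of vehicle for each sex. The points run low in dexamethasone libraries and high in vehicle libraries, which picking by likeness to Cxcr4 largely fixed in advance. Root mean square differences from Cxcr4 were 0.279 to 0.299.

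Cxcr4 and Cxcl12 are also expressed by cells other than neural progenitors, so the markers of such cells were read beside them. Of 10 microglial markers only Cd68 averaged at least 1 FPKM, their sum was 1.02 to 2.69 FPKM in dexamethasone libraries and 0.987 to 3.37 FPKM in vehicle libraries, and C1qa and C1qb were listed at 0 in all 12. Of 7 endothelial markers only Flt1 reached that mean, at 2.08 FPKM, with sums of 1.28 to 5.10 FPKM under dexamethasone and 1.98 to 5.45 FPKM under vehicle, and the defining marker Cdh5 averaged 0.00215 FPKM. Of 7 mural and fibroblast markers only Acta2 did, at 27.9 FPKM, with sums of 20.3 to 37.4 FPKM under dexamethasone and 16.02 to 44.7 FPKM under vehicle, and Lum was listed at 0 throughout. In each of these lists the treatments overlapped.

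The neural identity of the cultures matched their label. All 10 neural stem cell markers were tested, led by Fabp7 at 3503 FPKM. None was called, against 1.53% of all loci tested (limma, 1 at an unadjusted p under 0.05). Their sum was 5867 to 7598 FPKM in dexamethasone libraries and 6114 to 7474 FPKM in vehicle libraries. Differences were positive at 3 of the 10 and negative at 7, with a median log2 difference of -0.11. Sox2, a core factor of neural stem cells, was picked out for its values. It was at 81.3 to 96.8 FPKM in dexamethasone libraries and 103 to 158 FPKM in vehicle libraries, without overlap. That separation was seen at 0.804% of the loci tested, and at no other marker of this list. The log2 difference of Sox2, -0.42, was the most negative of the list and was not called (SE 0.10, limma adjusted p = 0.0915). Of 7 oligodendrocyte lineage markers, all tested, Cspg4, the proteoglycan NG2 of oligodendrocyte precursors, rose by 0.76 (SE 0.12, limma adjusted p = 0.0114), and the other 6 were not called, against 1.15% of all loci called higher and 0.388% lower. Differences were positive at 3 of these 7 and negative at 4, with a median log2 difference of -0.04. Their sum was 330 to 436 FPKM under dexamethasone and 338 to 423 FPKM under vehicle. None of 7 astrocytic and 5 tested neuronal markers was called, against 1.53% of all loci tested (limma, 1 and 0 at an unadjusted p under 0.05). The part of Sox2-expressing or Cspg4-expressing cells in the level of Cxcr4 was not tested.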

How the data were processed

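RNA was measured in 12 libraries of mouse hypothalamic neurospheres, 3 in each of 4 groups taken from the labels. The authors deposited FPKM for 40597 loci, for which the submitters' processing notes name the GRCm38 build, TopHat2 2.0.9, Cuffdiff 2.2.1 and Cufflinks 2.2.1. The design text says that the libraries ran on 2 lanes, and the table holds 1 column per library. The release of the annotation, the use of strand in counting and the scaling of libraries are not stated there, which leaves overlapping, antisense and joined loci (930) uncertain. Of the loci, 37937 had a gene name, 24 of them restored from spreadsheet dates by Ensembl identifier. Ensembl identifiers of 35496 loci were found in the gene name reference used for this. Coordinates of the listed genes are those of GENCODE M21, matched by gene name.

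FPKM hold no counts, so absolute depth is unknown. The relative value of 1 fragment, read from the most frequent ratio between libraries at low loci, lay between 1 and 1.61, and an exact 0 can be a failed estimate. Values were tested as log2(FPKM + 1), which understates the change of low genes, at the 14931 loci that averaged 1 FPKM or more. Models were fitted over all 12 libraries with limma 3.58.1 in R 4.3.3 (1 mean per group, mean-variance trend). Tests were two-sided, with Benjamini-Hochberg adjustment over all loci and calls at an adjusted p under 0.05. Scripts were tested on simulated data.

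The members, lists and named genes were chosen with earlier results of these data known. Named were both members, all partners, from each other list the called genes and the 4 highest, the 6 most similar profiles, and check and marker genes. An item that this rule names is not reported here. Alternatives were other pseudocounts (0.1 and 0.5), no filter or a mean of at least 5 FPKM, median-ratio and quantile scaling, robust eBayes, the replicate number as a block, and libraries left out.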

Additional observations from a re-analysis of the deposited data

How the results depend on the processing

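The description of Cxcr4 kept its direction under every alternative that gave a value, with averaged log2 differences from -1.21 (pseudocount 0.1) to -0.91; with a mean of at least 5 FPKM required, Cxcr4 itself was left out. Its small interaction and sex difference were never called. Without male vehicle library 3 and male dexamethasone library 2 they turned to -0.060 and 0.041, and leaving out 1 library at a time they ranged from -0.10 to 0.27 and from -0.16 to 0.025, changing sign without male vehicle library 3 or female vehicle library 3. Mif and Mmp14, neither called, turned to -0.047 and 0.037 under quantile normalization and ranged from -0.015 to 0.11 and from -0.17 to 0.15 with 1 library left out. The joined Arrb2 locus, also not called, ranged from -0.22 to 0.54 with 1 library left out, and was at -0.26 without both male libraries numbered 2 and at -0.16 without male vehicle library 3 and male dexamethasone library 2.

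Leaving out 1 library at a time gave 146 to 215 called loci for the averaged effect, 28 to 49 for males, 31 to 74 for females, 4 to 14 for the interaction, 15 to 28 for the sex difference and 1 to 3 among the axis genes. The averaged count was lowest without female dexamethasone library 1. Without both male libraries numbered 2 the counts were 104 averaged, 14 male, 9 interaction and 1 axis gene; without male vehicle library 3 and male dexamethasone library 2 they were 114, 19, 8 and 1. The causes were not tested, and fewer libraries entered each of these fits.

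Libraries of a sex with the same replicate number correlated at 0.0819 to 0.167 in their deviations, and 2 of 6 pairs stayed at or under 0.1, so the numbers were not taken to pair the libraries. Each pair did correlate best with its own number, a hint from the data and not from the design. With the replicate block the calls were 804 averaged (420 higher, 384 lower), 148 male, 187 female and 8 interaction, and 9 axis genes: Ackr3, Sdc4, Gng2, Pak1, Elmo1 and Ptk2b higher, and Cd44, Cx3cl1 and Rock2 lower. Cxcl12 and the other chemokine receptors were under the filter and not tested.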

Other observations

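Arrb2, the gene of an arrestin that uncouples CXCR4 from its G protein, is listed as 1 locus joined with a microRNA gene, and this locus was chosen after its values were seen. It stood at 147 FPKM in male dexamethasone library 2, at 16.9 to 19.0 FPKM in the other 5 dexamethasone libraries and at 16.2 to 27.3 FPKM in the 6 vehicle libraries. Its averaged log2 difference was 0.28 (SE 0.46, limma adjusted p = 0.817), and without male dexamethasone library 2 it was -0.22 (SE 0.09, limma adjusted p = 0.402). Over its alternatives the adjusted p ran from 0.402 to 0.901.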
